A study of Homo sapiens with 4 samples.

Results

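NCOA1, NCOA2, NCOA3, NCOA4 and NCOR1 are coregulators of nuclear receptors, and they were examined as a group of 5 genes through every probe set that the annotation of the Affymetrix HG-U95Av2 array gives them. The group was put together because the total RNA values of NCOA1 and NCOA2 moved in opposite directions with RBM35A, so those values are given below as a description and support nothing. The annotation assigned 2 probe sets to NCOA1, 2 to NCOA2 and 1 to NCOA4, which makes 5 of 10943 probe sets with a single gene symbol. It assigned 0 to NCOA3 and 0 to NCOR1, so these 2 genes have no value here. Of the 5 probe sets, 4 reached a log2 value of 5 on at least 1 array, and 3 of the 8225 genes with a probe set (NCOA1, NCOA2 and NCOA4) entered the comparisons, among 3588 genes analysed.

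The cells were LS180, an established human colon carcinoma line, in which a Tet-off system turns RBM35A on when doxycycline is withdrawn. RBM35A, now called ESRP1, is an epithelial RNA-binding protein that regulates splicing. The 4 groups were polysomal RNA of RBM35A+ cells, polysomal RNA of RBM35A− cells, total RNA of RBM35A+ cells and total RNA of RBM35A− cells, with 1 array each. Doxycycline had been left out of the medium of RBM35A+ cells for 6 days or more, whereas RBM35A− cells, which the labels call parental without saying if they held the construct, stayed in doxycycline; the effects of RBM35A, of the drug and of any difference between the lines therefore cannot be told apart. Polysomal RNA was taken from sucrose gradients after cycloheximide, and total RNA was extracted with TRIZOL, so fraction and extraction also changed together. Of 13 markers of colon epithelium, 12 were measured, among them KRT8 at 13.21 to 13.86 and EPCAM at 10.28 to 10.62. In polysomal RNA these 12 markers had a median RBM35A+ minus RBM35A− difference of −0.21, with 9 below 0, CEACAM5 the lowest (−0.56) and CDH1 the highest (0.10). In total RNA their median was 0.03, with KRT18 the lowest (−0.34) and CDH1 the highest (0.39). The part of this shift in the values below was not tested. Of the markers of other cells, 1 of 7 blood cell markers on the array (HBB) and 1 of 9 fibroblast and endothelial markers on the array (COL1A1) were measured.

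Nuclear receptors are transcription factors that bind hormones, vitamins and lipids. A bound receptor recruits coactivators of the p160 family (NCOA1, also called SRC-1, NCOA2, also called TIF2, and NCOA3, also called AIB1), which contact the receptor through short leucine-rich motifs and bring in the acetyltransferases CREBBP and EP300 and the methyltransferase CARM1. Without an activating ligand, several receptors instead hold NCOR1, a scaffold that carries the histone deacetylase HDAC3. NCOA4, named as a coactivator of the androgen receptor, is not related to the p160 proteins and is best known as the receptor that delivers ferritin to autophagosomes. In the gut, receptors served by these proteins include those for vitamin D, retinoids, bile acids and mineralocorticoids.

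With RBM35A, NCOA2 was higher in both RNA fractions with the floor of 5 used here, NCOA1 was lower in total RNA but not in polysomal RNA, and NCOA4 differed little in either. On the log2 scale the RBM35A+ minus RBM35A− difference was 0.52 in polysomal RNA and 0.68 in total RNA for NCOA2, 0.26 and −0.76 for NCOA1, and 0.15 and −0.13 for NCOA4. With 1 array per group none of these differences has a p-value or a replicate check. As a yardstick, 489 genes with several measured probe sets were used to find how far such probe sets disagree, which gave an SD for a single probe set of 0.187 in polysomal RNA and 0.211 in total RNA. This SD holds the error of the probes and leaves out that of the cultures. It was pooled over genes of all levels, with values under 5 raised to 5, so it is not specific to dim probe sets. In RNA of whole cultures, fewer cells with a transcript and less of it per cell cannot be told apart.

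**Figure D1:**
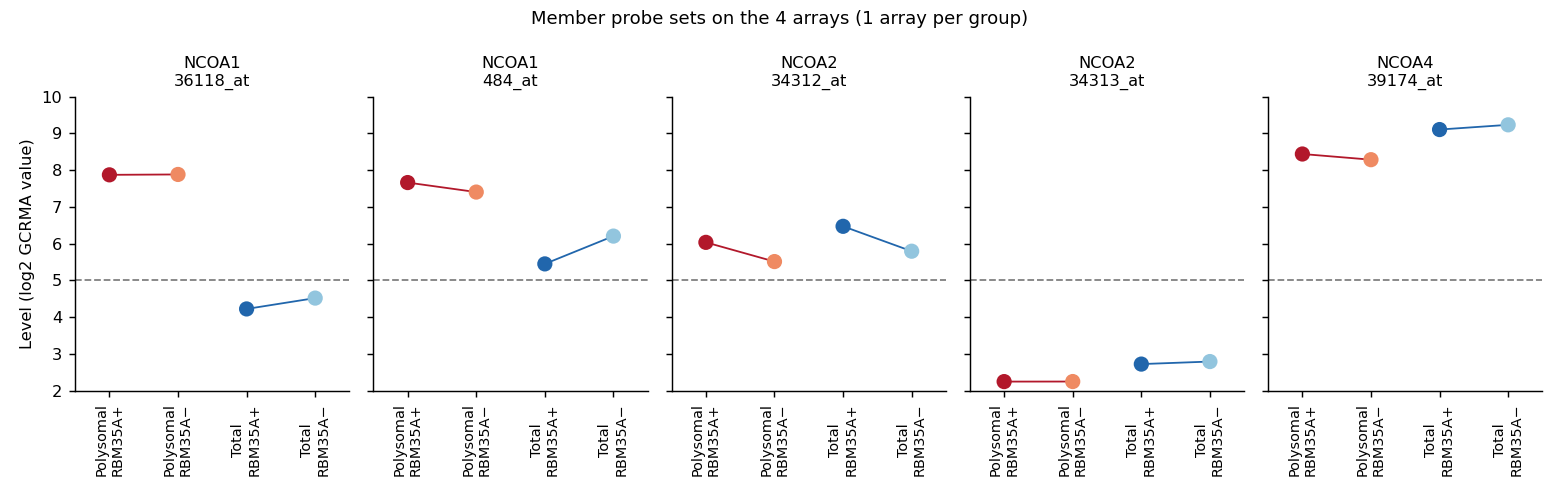
Level (log2 GCRMA value) of each of the 5 member probe sets on the 4 arrays, 1 point per array, with lines joining the RBM35A+ and RBM35A− arrays of a fraction and a dashed line at the floor of 5. The NCOA1 probe sets are high in polysomal RNA, the NCOA2 probe set 34312_at is higher in RBM35A+ in both fractions, and 34313_at stays under 3 on every array.

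NCOA1 was read by the probe sets 484_at and 36118_at. The first of these had the higher mean over the arrays and stands for the gene. It read 7.66 in polysomal RNA of RBM35A+ cells and 7.40 in polysomal RNA of RBM35A− cells. In total RNA it read 5.45 in RBM35A+ cells and 6.21 in RBM35A− cells. Both polysomal values thus lay above both total RNA values, and the lowest of the 4 was the total RNA of RBM35A+ cells, close to the floor of 5 below which values were treated as unmeasured. The total RNA level was 1.69-fold lower in RBM35A+ cells, and 4 of the 3588 genes lay lower still. The polysomal level was 1.20-fold higher in RBM35A+ cells, 1.39 times the SD of a single probe set, with 390 genes higher still.

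The other NCOA1 probe set, 36118_at, read 7.87 in polysomal RNA of RBM35A+ cells and 7.88 in polysomal RNA of RBM35A− cells, so the polysomal values were alike to within 0.01. In total RNA it was below the floor on both arrays, with 4.22 deposited for RBM35A+ cells and 4.52 for RBM35A− cells. Taken as deposited, its total RNA difference was −0.30, the same sign as that of 484_at and 1.23-fold in size. The probe sets of NCOA1 therefore had the same sign in total RNA, one of them from values too low to be counted, and gave 0.26 and −0.01 in polysomal RNA. With the mean of both probe sets, floored, the gene's total RNA difference was −0.38, under 1.5-fold.

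NCOA2 was read by 34312_at, since its second probe set, 34313_at, lay between 2.25 and 2.79 on the 4 arrays, below the floor on each. The probe set 34312_at read 6.04 in polysomal RNA of RBM35A+ cells and 5.51 in polysomal RNA of RBM35A− cells. In total RNA it read 6.47 in RBM35A+ cells and 5.79 in RBM35A− cells. The RBM35A+ array was the higher of its pair in both fractions, and all 4 values lay within 1.5 of the floor. The polysomal level was 1.44-fold higher in RBM35A+ cells, 2.80 times the SD of a single probe set, and 45 of 3588 genes lay higher. With a floor of 6, which lies above 1 of its polysomal values, that difference became 0.035. The total RNA level was 1.60-fold higher, with 26 genes above it.

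NCOA4 was read by the single probe set 39174_at. It read 8.44 in polysomal RNA of RBM35A+ cells and 8.28 in polysomal RNA of RBM35A− cells. In total RNA it read 9.10 in RBM35A+ cells and 9.23 in RBM35A− cells. The differences of 0.15 and −0.13 were each smaller than the SD of a single probe set, 1.11-fold higher in polysomal RNA and 1.09-fold lower in total RNA.

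Counted at 1.5-fold, 1 of the 3 member genes (NCOA2) was higher and 1 (NCOA1) was lower in total RNA of RBM35A+ cells. Of all 3588 genes, 1.42% were higher and 0.613% lower by that fold, 2.03% together. Since the members were chosen on this contrast, nothing is read from their count. With a floor of 6 both counts became 0, with NCOA1 at −0.21 and NCOA2 at 0.47. Large differences were more frequent among dim genes: of 1193 genes with a mean total RNA level of 5 to 7, where NCOA1 and NCOA2 lie, 3.6% passed 1.5-fold, against 1.46% of 2056 genes at 7 or more. In polysomal RNA 0 of the 3 members passed 1.5-fold, where 1.95% of all genes did (0.725% higher and 1.23% lower), and NCOA2 at 0.52 came nearest to the limit of 0.58.

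**Figure D2:**
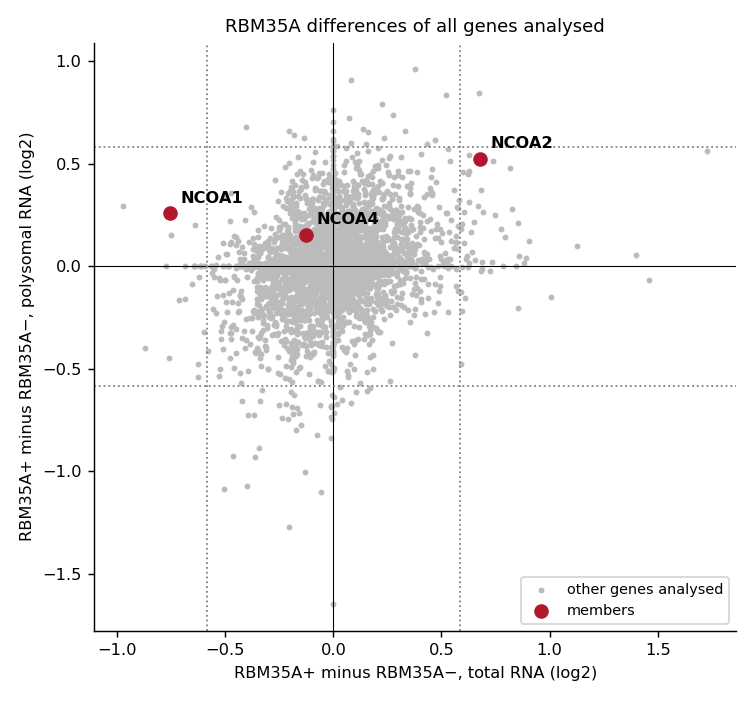
RBM35A+ minus RBM35A− difference (log2) in total RNA on the x axis and in polysomal RNA on the y axis for the 3588 genes analysed, 1 point per gene, with the 3 measured members in red and dotted lines at 1.5-fold. NCOA2 (0.68 and 0.52) lies toward the upper right, NCOA1 (−0.76 and 0.26) at the far left and above 0, and NCOA4 (−0.13 and 0.15) within the main cloud.

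The difference of differences of NCOA1, polysomal minus total, was 1.02, against an SD of 0.259 for a single probe set. Most of it is the total RNA value that chose the gene, so it is a description only. Of all genes, 1.31% were higher by 1.5-fold or more on this measure, 2.12% were lower by 1.5-fold or more, and 3.43% passed in either direction. The probe set 36118_at, with both total RNA values at the floor, gave −0.01, which rests on polysomal RNA alone, and 0.28 from values as deposited. NCOA2 had −0.15 and NCOA4 had 0.28, the first smaller than the SD of a single probe set and the second 1.09 times that SD. Opposite signs in the fractions, as NCOA1 and NCOA4 had, were found in 40% of the 3082 genes with a difference other than 0 in both.

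The genes also differed in how polysomal RNA compared with total RNA, which is not the contrast used to choose the members but contains the same total RNA values. NCOA1 was higher in polysomal RNA, NCOA4 was lower there, and NCOA2 was slightly lower. At 484_at the polysomal minus total difference of NCOA1 was 2.21 in RBM35A+ cells and 1.20 in RBM35A− cells, or 4.64-fold and 2.29-fold. These were 2.63 and 1.49 times the SD of a single probe set for this measure, with 71 and 367 of 3588 genes higher. Both values subtract total RNA values that entered the choice of the gene, so these ranks are not independent of that choice. At 36118_at the difference was at least 7.32-fold in RBM35A+ cells and at least 7.38-fold in RBM35A− cells, since the total RNA values were raised to the floor. Both probe sets therefore read NCOA1 as higher in polysomal than in total RNA in both states, and the bound at 36118_at lay above the value at 484_at in each.

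NCOA2 had a polysomal minus total difference of −0.44 in RBM35A+ cells and −0.28 in RBM35A− cells. These were −0.52 and −0.35 times the SD of a single probe set, and with a floor of 6 the second became 0. NCOA4 had −0.67 in RBM35A+ cells and −0.95 in RBM35A− cells, so it was 1.59-fold and 1.93-fold lower in polysomal RNA. The NCOA4 differences were −0.79 and −1.18 times that SD. At 1.5-fold, NCOA1 was higher and NCOA4 lower in both states and NCOA2 was not past the limit. Such differences were common: 43.7% of the 3588 genes passed 1.5-fold in RBM35A+ cells (26.3% higher and 17.4% lower) and 43.4% did in RBM35A− cells (25.9% higher and 17.5% lower). The SD of a single probe set was also wide for this measure, 0.84 in RBM35A+ cells and 0.807 in RBM35A− cells, and the fractions had been normalized apart from each other.

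**Figure D3:**
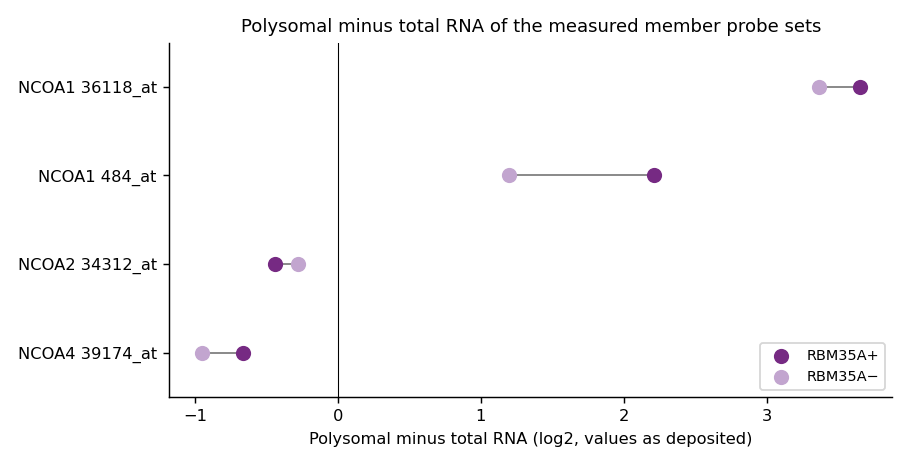
Polysomal minus total RNA difference (log2, values as deposited) of the 4 measured member probe sets, in RBM35A+ cells (dark) and RBM35A− cells (light), 1 point per pair of arrays. Both NCOA1 probe sets lie above 0, at 1.20 to 3.65, and the NCOA2 and NCOA4 probe sets lie below 0, at −0.28 to −0.95; the total RNA values of 36118_at are below the floor, so its points are uncertain.

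Control probe sets along the beta-actin transcript showed that the polysomal arrays read less of the 5′ end. The polysomal minus total difference of beta-actin was −5.32 in RBM35A+ cells and −4.51 in RBM35A− cells at its 5′ probe set, against −0.27 and −0.30 at its 3′ probe set. For GAPDH it was smaller, −2.59 and −1.83 at the 5′ probe set, against −0.14 and −0.16 at the 3′ probe set. Within polysomal RNA, RBM35A+ minus RBM35A− was −0.86 at the 5′ and −0.02 at the 3′ probe set of beta-actin, and −0.79 and −0.13 at those of GAPDH. The place of the NCOA1, NCOA2 and NCOA4 probe sets along their transcripts was not used, and the part of this lower 5′ signal in their values was not tested.

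The genes most like each member were sought by the distance between log2 values over the 4 arrays after each gene's own mean was taken away, among 3004 genes measured on all 4 arrays. Nearest to NCOA1 was RAMP1, which modifies the calcitonin receptor family (distance 0.08), with 0.15 in polysomal and −0.75 in total RNA. Next came MCRS1, a nucleolar and centrosomal protein (distance 0.25), and TRADD, the adaptor of the tumour necrosis factor receptor (distance 0.31). Like NCOA1, these genes were lower in total RNA of RBM35A+ cells (−0.53 for MCRS1 and −0.56 for TRADD) and read higher in polysomal than in total RNA. This likeness follows from their choice by distance over the same values. The polysomal differences of MCRS1 and TRADD (0.05 and −0.03) were nearer 0 than the 0.26 of NCOA1.

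Nearest to NCOA2 were ATP10B, a lipid flippase of the P4-ATPase family (distance 0.15), NR3C2, the mineralocorticoid receptor (distance 0.21), and MALL, a membrane raft protein (distance 0.21). NR3C2 is itself a nuclear receptor, and it read 5.57 in polysomal RNA of RBM35A+ cells, 5.29 in polysomal RNA of RBM35A− cells, 6.18 in total RNA of RBM35A+ cells and 5.61 in total RNA of RBM35A− cells. Its RBM35A difference was 0.29 in polysomal RNA and 0.57 in total RNA, with the RBM35A+ array the higher of each pair, as for NCOA2. Nearest to NCOA4 were the tubulin TUBB (distance 0.03), the adaptor SHC1 (0.05) and the proteasome ATPase PSMC4 (0.06). These resemblances rest on 4 values a gene, follow from the choice by distance and carry no test.

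Of the other coregulator genes analysed, which are NCOA6 and the partners and corepressors below, 0 passed 1.5-fold with RBM35A in either fraction. Over all genes 1.95% did in polysomal RNA and 2.03% in total RNA, so a count of 0 in so few genes is near the background. NCOA6, a coactivator outside the p160 family and the only other NCOA gene analysed, read 7.02 in polysomal RNA of RBM35A+ cells and 7.03 in polysomal RNA of RBM35A− cells, and 6.39 in total RNA of RBM35A+ cells and 6.40 in total RNA of RBM35A− cells. NCOA6 thus differed by 0.01 between the states in either fraction. NCOA5 and NCOA7 had no probe set under their symbols, as NCOA3 did not.

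Among partners of coactivators, 28 of 54 listed genes were analysed, and 0 passed 1.5-fold in either fraction and either direction. Their median RBM35A difference was 0.01 in polysomal RNA and 0.00 in total RNA, against 0.01 and 0.00 over all genes. The highest in polysomal RNA was COPS5, a COP9 signalosome subunit also known as a coactivator of JUN (0.45), and the lowest was COPS2 of the same complex (at least 0.33 lower, as its RBM35A+ value was floored). In total RNA the highest was SFPQ, a splicing factor that also binds receptors (0.50), and the lowest was COPS2 (−0.28). CARM1, the methyltransferase that p160 proteins recruit, had 0.27 in polysomal and 0.05 in total RNA. MED1, the Mediator subunit that contacts ligand-bound receptors, had 0.04 and −0.03.

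Of the NCOR1 and Sin3 corepressor complexes and related corepressors, 12 of 22 listed genes were analysed and 0 passed 1.5-fold in either fraction. Their median was 0.00 in polysomal RNA and −0.04 in total RNA. HDAC3, the deacetylase of the NCOR1 complex, read 6.85 in polysomal RNA of RBM35A+ cells and 6.75 in polysomal RNA of RBM35A− cells. In total RNA HDAC3 read 5.05 in RBM35A+ cells and 5.41 in RBM35A− cells, a difference of −0.36 beside 0.09 in polysomal RNA. TBL1X, the WD40 protein that holds the NCOR1 complex together, was at 0.24 and 0.29, the highest of the list in both fractions. GPS2, a further subunit, was at −0.10 and 0.28. The lowest was CTBP1, a corepressor that acts apart from NCOR1, in polysomal RNA (−0.32) and the histone chaperone RBBP4 in total RNA (−0.49, with both polysomal values below the floor). NRIP1, a corepressor that binds active receptors, had 0.10 and 0.23.

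**Figure D4:**
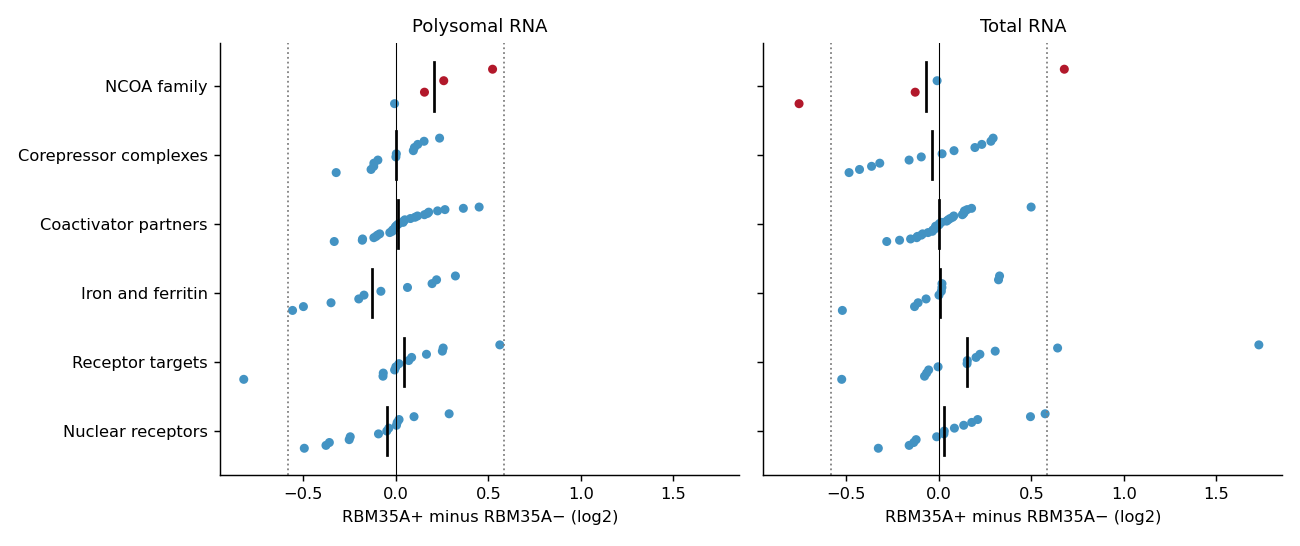
RBM35A+ minus RBM35A− difference (log2) of the analysed genes of each list in polysomal RNA (left) and total RNA (right), 1 point per gene, with members in red, a black bar at each list's median and dotted lines at 1.5-fold. In the corepressor, coactivator partner, iron and nuclear receptor lists 0 genes lie past a dotted line, while CYP3A5 and FABP1 among receptor targets and NCOA1 and NCOA2 do in total RNA and TXNIP does in polysomal RNA.

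Of the nuclear receptors themselves, 13 of 48 listed were analysed, and 0 passed 1.5-fold in either fraction, a count near the background of 1.95% in polysomal RNA and 2.03% in total RNA. NR3C2 was the highest in both, with the values above. RARG, a retinoic acid receptor, had −0.05 in polysomal and 0.49 in total RNA. VDR, the vitamin D receptor, was the lowest in total RNA (−0.33, with 0.10 in polysomal RNA), and the orphan receptor NR2F1 was the lowest in polysomal RNA (−0.50). The heterodimer partner RXRA was near 0 in both (0.00 and −0.01). The median was −0.05 in polysomal RNA and 0.03 in total RNA. For the difference of differences 11 of the 13 lay below 0, with a median of −0.24, against 47.4% of all 3588 genes below 0 and a median of 0.01. Among the members NCOA2 also lay below 0, and NCOA1 and NCOA4 lay above it. The colon epithelium markers lay below 0 as often, 10 of 12 with a median of −0.21. Of the coactivator partners 14 of 28 lay below 0 (median −0.003), and of the corepressors 7 of 12 (−0.05). Of the iron and autophagy genes below 7 of 10 did (−0.10), and of the receptor targets 7 of 12 (−0.06). The receptors had the lowest median of these lists.

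Of 39 listed target genes of nuclear receptors, 12 were analysed. In total RNA of RBM35A+ cells 2 were at least 1.5-fold higher, CYP3A5, a drug-metabolizing enzyme induced through the receptors for xenobiotics and vitamin D (1.73), and FABP1, a fatty acid carrier induced through PPARA (0.64), and 0 were lower, where 1.42% of all genes were higher and 0.613% lower. With a floor of 6 the count of 2 became 1. CYP3A5 read 7.14 in total RNA of RBM35A+ cells and 5.41 in that of RBM35A− cells. FABP1 read 6.12 in total RNA of RBM35A+ cells and 5.48 in that of RBM35A− cells. In polysomal RNA 1 was lower, TXNIP, an inhibitor of thioredoxin first described as induced by vitamin D (−0.82), and 0 were higher, with CYP3A5 at 0.56. Of all genes, 1.23% were lower and 0.725% higher by 1.5-fold in polysomal RNA. The oestrogen-induced trefoil factor TFF1 was the lowest in total RNA (−0.53). The median of the list was 0.04 in polysomal RNA and 0.15 in total RNA, and which coregulator serves each target in these cells was not measured.

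Around NCOA4, 10 of 19 listed genes of iron handling and autophagy were analysed, and 0 passed 1.5-fold in either fraction. That count is near the background of 1.95% in polysomal RNA and 2.03% in total RNA. FTL, the ferritin light chain, was at 0.06 in polysomal and 0.00 in total RNA, and TFRC, the transferrin receptor, was at 0.32 and 0.02, the highest of the list in polysomal RNA. ACO1, the aconitase that also acts as an iron regulatory protein, was the lowest in polysomal RNA (−0.56, with −0.07 in total RNA). MAP1LC3B, the autophagosome protein LC3B, was the lowest in total RNA, with −0.50 in polysomal and −0.52 in total RNA. The iron importer SLC11A2 was the highest in total RNA (0.33, with 0.20 in polysomal RNA). The median of the list was −0.13 in polysomal RNA and 0.01 in total RNA.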

How the data were processed

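Labelled cRNA from 10 µg of RNA per sample was hybridized to Affymetrix HG-U95Av2 arrays. The deposited values are log2 expression values, for which the authors used GCRMA according to the submitters' processing notes. Sorted values were equal to within 4.29e-06 in the total RNA pair and 6.61e-06 in the polysomal pair but differed by up to 0.227 between fractions, so each fraction had been quantile normalized by itself, which removes shifts shared by most genes of 1 array.

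Symbols came from the platform annotation and were updated by gene ID (10934 of 10943 matched) through a RefSeq table of GRCh38.p14. The probe set of highest mean stood for each gene, values under 5 were raised to 5, and genes reaching 5 on at least 1 array were analysed (Python 3.11.15, pandas 2.3.3). The scripts were checked on simulated data. No test was made, since each group had 1 array and the members were chosen on the RBM35A contrast. Members, lists and settings were chosen with earlier results of these data known. Named genes were all member probe sets, the 3 genes nearest each member, list genes past 1.5-fold or highest or lowest in a list, and analysed cell type markers; CARM1, MED1, HDAC3, GPS2, NRIP1, RARG, RXRA, TFF1 and FTL were added for their role, after their values were seen. Alternatives changed the floor, the choice of probe set, the probe set types, the normalization and the centring. Precision is limited by the number of arrays.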

Additional observations from a re-analysis of the deposited data

Results flagged for a closer look

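For NCOA1 the RBM35A+ minus RBM35A− difference was positive in polysomal RNA (0.26) and negative in total RNA (−0.76), a difference of differences of 1.02. For NCOA4 the signs were also opposite (0.15 in polysomal and −0.13 in total RNA), with a difference of differences of 0.28. With 1 array per group these differences between fractions were not tested.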

How the results depend on the processing

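Of 280 values recomputed for 49 results, 264 moved by less than the SD of a single probe set, or for counts by no more than 1.5 times, and 0 of the called differences changed sign among these 280 values. With a floor of 6, NCOA1 had −0.21 in total RNA and a difference of differences of 0.46, NCOA2 had 0.035 in polysomal RNA and −0.44 as difference of differences, the members 1.5-fold higher and lower in total RNA became 0 and 0, and 1 receptor target, against 2, was 1.5-fold higher in total RNA; values between 5 and 6 are set equal by that floor. With the mean of measured probe sets, NCOA1 had −0.38 in total RNA, 0.50 as difference of differences and a polysomal minus total value of 2.04 in RBM35A− cells, and 0 members were 1.5-fold lower in total RNA. The NCOA1 probe set 36118_at by itself with no floor, an alternative chosen after seeing the data, gave −0.010 in polysomal and −0.30 in total RNA, 0.28 as difference of differences, and polysomal minus total values of 3.65 and 3.36 in RBM35A+ and RBM35A− cells. With the floor of 5, which was not among the 280 values, 36118_at gave 0 in total RNA and −0.010 as difference of differences. That sign is opposite to the called 1.02 of 484_at. A floor of 4, no floor, and leaving out probe sets whose suffix marks shared or relaxed design moved 0 of the 49 results by more than the stated limits. For the member differences this was fixed in advance and shows nothing about their stability. The probe sets that stand for the members read 5 or more on all 4 arrays and carry no such suffix. The mean of measured probe sets was likewise forced for NCOA2 and NCOA4, with 1 measured probe set each. A floor of 6 was forced for NCOA4, whose lowest value was 8.28. These forced repeats are counted among the 264 values. Joint quantile normalization and centring were run on the 15 differences of the members and moved 0 of them so far. Centring took away medians of 0 to 0.090, each under the SD for its measure, so it could move none past the limit. Sorted values were already equal within each pair of arrays, so joint normalization could also change little. These repeats therefore show little about stability. With a floor of 4, 66 genes were higher and 43 lower by 1.5-fold in total RNA, against 51 and 22 with the floor of 5; with a floor of 6 there were 36 and 12, and with no floor 69 and 34. No paired analysis was possible because each group had 1 array. Values near the floor, as those of NCOA1 in total RNA and of NCOA2, are the least certain.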
